A study of Mus musculus with 8 samples.

Results

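The genes described here are the ones that set the entry into the cell cycle: 4 inhibitors of cyclin-dependent kinases (Cdkn1a, Cdkn1b, Cdkn2c and Cdkn2d), the 3 D-type cyclins (Ccnd1, Ccnd2 and Ccnd3), the kinases Cdk4 and Cdk6, and the transcription factor gene Myc. They were chosen by symbol, and all 10 were found by Ensembl gene ID among the 50686 genes of the count table. The RNA was that of thymic ILC2 (group 2 innate lymphoid cells, a lymphocyte type known for IL-5 and IL-13). Donor animals were C57BL/6 and carried plck-Id1, a transgene whose proximal Lck promoter makes thymocytes produce Id1, an inhibitor of E proteins. The ILC2 had been transduced with the retroviral vector MIGR1, and GFP-positive cells had been sorted and grown in IL-25, IL-33 and IL-7. The groups, each of 2 libraries, were E47-ER cells and GFP cells after 4 h of 4-hydroxytamoxifen, and E47-ER cells and GFP cells after 16 h of the same drug. E47 is an E protein made by Tcf3, and E47-ER is its fusion with the estrogen receptor, which the drug activates. GFP cells carried the vector with GFP alone, and both kinds of cell shared the transgene, the cytokines and the drug. No E47-ER library without the drug is analysed here, so a difference present before the drug and a response to it cannot be told apart.

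In mammalian cells D-type cyclins bind CDK4 and CDK6, and the complexes phosphorylate the retinoblastoma protein, which frees E2F factors to switch on genes of DNA synthesis. The INK4 proteins p18 (Cdkn2c) and p19 (Cdkn2d) bind and block CDK4 and CDK6, while the CIP/KIP proteins p21 (Cdkn1a) and p27 (Cdkn1b) act mainly on CDK2 complexes. MYC, with its partner MAX, binds the sequence CACGTG and drives genes of ribosome building and metabolism, and Cdk4 is a known MYC target. E proteins bind the wider E-box family, CANNTG.

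RefSeq promoter windows of 250 bases before a start (GRCm38.p6) were found for 7 of the 10 genes, 10 windows in all, and none for Ccnd1, Ccnd2 and Myc. E-box letters CANNTG, which read the same on both strands, stood in 3 of the 10 windows, against 66.2% of all 32851 windows. Every other motif named here is a form of CANNTG. The Cdk4 window held CACGTG 4 times, its first base at -172, -118, -98 and -11 from the start, and 7 of all windows, or 0.0213%, held it 4 times or more. At least 1 CACGTG stood in 6.02% of windows, Cdk6 among them with 1 at -220. The second start of Cdkn1a had 1 CAGGTG at -187, and 17.2% of windows held that motif on either strand. The Cdk4 window lies just before the gene, and this Cdkn1a window lies in the first intron of the longer transcript. Both, on the plus strand, are printed because they carry the motif of MYC and an E-box that an E protein could read. The capitals mark those motifs, and a match is a description of letters, not a site shown to be bound.
Cdk4, chr10:127063285-127063534: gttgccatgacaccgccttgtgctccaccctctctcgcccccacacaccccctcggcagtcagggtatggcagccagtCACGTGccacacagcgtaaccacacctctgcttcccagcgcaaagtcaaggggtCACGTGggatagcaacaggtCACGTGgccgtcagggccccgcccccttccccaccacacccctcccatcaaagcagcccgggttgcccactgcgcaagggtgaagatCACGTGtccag
Cdkn1a, second start, chr17:29093519-29093768: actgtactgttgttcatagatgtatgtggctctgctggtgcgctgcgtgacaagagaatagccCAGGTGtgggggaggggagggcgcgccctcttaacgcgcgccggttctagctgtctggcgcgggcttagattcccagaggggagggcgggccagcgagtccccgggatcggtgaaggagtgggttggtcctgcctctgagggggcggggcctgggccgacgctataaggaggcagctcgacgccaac

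Library totals ran from 8813782 to 18677675 counts. Replicate 2 of GFP at 16 h had the lowest total and stood apart: its log2 CPM correlated at 0.9543 on average with those of the 7 others, which reached 0.9798 to 0.9832. Short transcripts were over-represented in it: against the mean of the other 3 GFP libraries, genes with a longest transcript of at most 1017 bases had a median log2 difference of 0.82, and genes of at least 6472 bases one of -0.42. Results that rest on this library are therefore given with and without it. Esr1, the estrogen receptor gene, was at 43.8 to 54.5 CPM in the E47-ER libraries and at most 0.932 CPM in the GFP libraries, and Tcf3 at 146 to 170 CPM in E47-ER libraries, against 67.6 to 87.6 CPM in GFP libraries. The 12 ILC2 markers summed to 19100 to 21500 CPM in E47-ER libraries, against 24200 to 30300 CPM in GFP libraries, none at 0. Of these 12, 8 had negative log2 fold changes at 4 h and 9 at 16 h. The 1 called with all 8 libraries, Rora at 16 h, was higher in E47-ER cells, beside 1.59% of all genes called. In edgeR 4 of the 12 at 4 h and 7 at 16 h had an unadjusted p under 0.05, against 5.82% and 24% of all genes. Without replicate 2 of GFP at 16 h, 8 of the 12 had negative log2 fold changes at each time. In that fit values ran from -0.74 to 0.86 at 4 h and from -0.54 to 0.97 at 16 h. The median of the 12 was then -0.30 at 4 h and -0.22 at 16 h, against -0.30 and -0.44 with that library. The 9 T cell receptor and CD3 markers summed to 114 to 183 CPM in E47-ER libraries, against 60.1 to 83.8 CPM in GFP libraries. With all 8 libraries edgeR called 2 of the 6 tested (Trbc1 and Trbc2) higher at both times. Over all genes, 0.271% were called higher at 4 h and 1.25% at 16 h. The median log2 fold change of the 6 was 0.58 at 4 h and 0.50 at 16 h. Omitting the library that stood apart gave medians of 0.58 and 0.75. Myeloid markers summed to 7.68 to 9.0 CPM in E47-ER libraries, against 4.49 to 6.25 CPM in GFP libraries. B cell markers summed to 6.45 to 14.2 CPM in the 8 libraries and erythroid markers to 0.528 to 1.33 CPM, with 2 of 4 at 0 throughout. The part of other cells in the results below was not tested.

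Transcript levels differed widely between the 10 genes. Levels between genes are compared as CPM per kilobase of merged exons, where CPM are counts per 1000000 of the library size after scaling by the trimmed mean of M values (TMM). Cdkn1a was highest on this scale, with a mean of 111 over the 8 libraries and a range of 97.7 to 128. Next came Cdkn2d, with a mean of 94.6 and a range of 76.4 to 156 that overlapped that of Cdkn1a. Cdk4, at 62.8 to 89.4, Ccnd2, at 55.0 to 67.7, and Cdk6, at 38.1 to 45.8, followed in that order, and of these 3 ranges only those of Cdk4 and Ccnd2 overlapped. The range of Cdk4 also overlapped that of Cdkn2d. Myc (21.1 to 48.4), Cdkn1b (25.5 to 34.2), Ccnd3 (24.8 to 33.1) and Cdkn2c (23.5 to 26.7) had ranges that overlapped, so their order was not separated by the spread, and that of Myc also reached into the range of Cdk6. Cdkn1a made up 36.6 to 46.7% of the summed level of the 4 inhibitors, Cdkn2d 30.6 to 47%, Cdkn1b 8.79 to 13.7% and Cdkn2c 7.68 to 11.1%. Ccnd1 stood far below them at 0.0566 to 0.168. The order depends on the length used: per kilobase of the longest transcript the means were 190 for Cdkn1a, 111 for Cdk4, 105 for Cdkn2d, 90.2 for Ccnd2, 67.1 for Ccnd3 and 51.6 for Cdk6, so that Cdk4 stood above Cdkn2d and Ccnd3 above Cdk6.

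**Figure D1:**
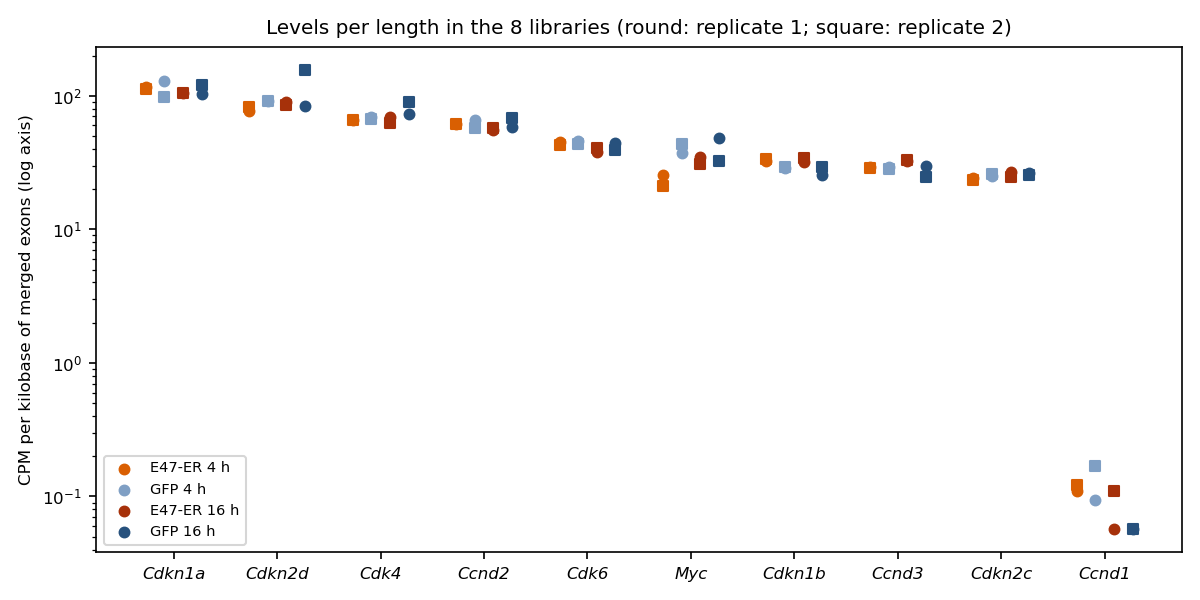
Levels of the 10 genes in CPM per kilobase of merged exons (log axis), 1 point per library, coloured by group; genes run from the highest to the lowest mean. Cdkn1a, Cdkn2d and Cdk4 lead, and Ccnd1 lies near 0.1.

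Cyclin D2 was the main D-type cyclin of these ILC2 by transcript level per kilobase, with both lengths used. Which transcript forms were present was not measured. Per kilobase, Ccnd2 (chr6:127125162-127152193, minus strand) made up 63.0 to 73.1% of the D-type total and Ccnd3 (chr17:47505051-47599691, plus strand) 26.8 to 36.9%. The Ccnd2 share was 63.0 and 63.3% in E47-ER libraries at 16 h, against 66.2 and 73.1% in GFP libraries at 16 h, 67.7 and 68.1% in E47-ER libraries at 4 h and 69.0 and 66.6% in GFP libraries at 4 h. The 2 lowest of these shares were those of E47-ER at 16 h, and the share was not tested. Ccnd1 (chr7:144929931-144939925, minus strand) was nearly silent: it had 2 to 15 counts a library, 57 in all, and did not pass the filter on low counts with 8 libraries. It shares 1100 exon bases with LTO1 on the other strand, and the strand setting of the counting is not given in the sources used here, so which gene these counts come from cannot be told. The ratio of Cdk4 (chr10:127063534-127067920, plus strand) to Cdk6 (chr5:3341485-3531008, plus strand) per kilobase averaged 1.66, with 1.45 to 1.80 in 7 libraries and 2.26 in replicate 2 of GFP at 16 h. Taking the longest transcript as the length gave Ccnd2 57.3% and Ccnd3 42.7% on average, and a ratio of 2.17.

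**Figure D2:**
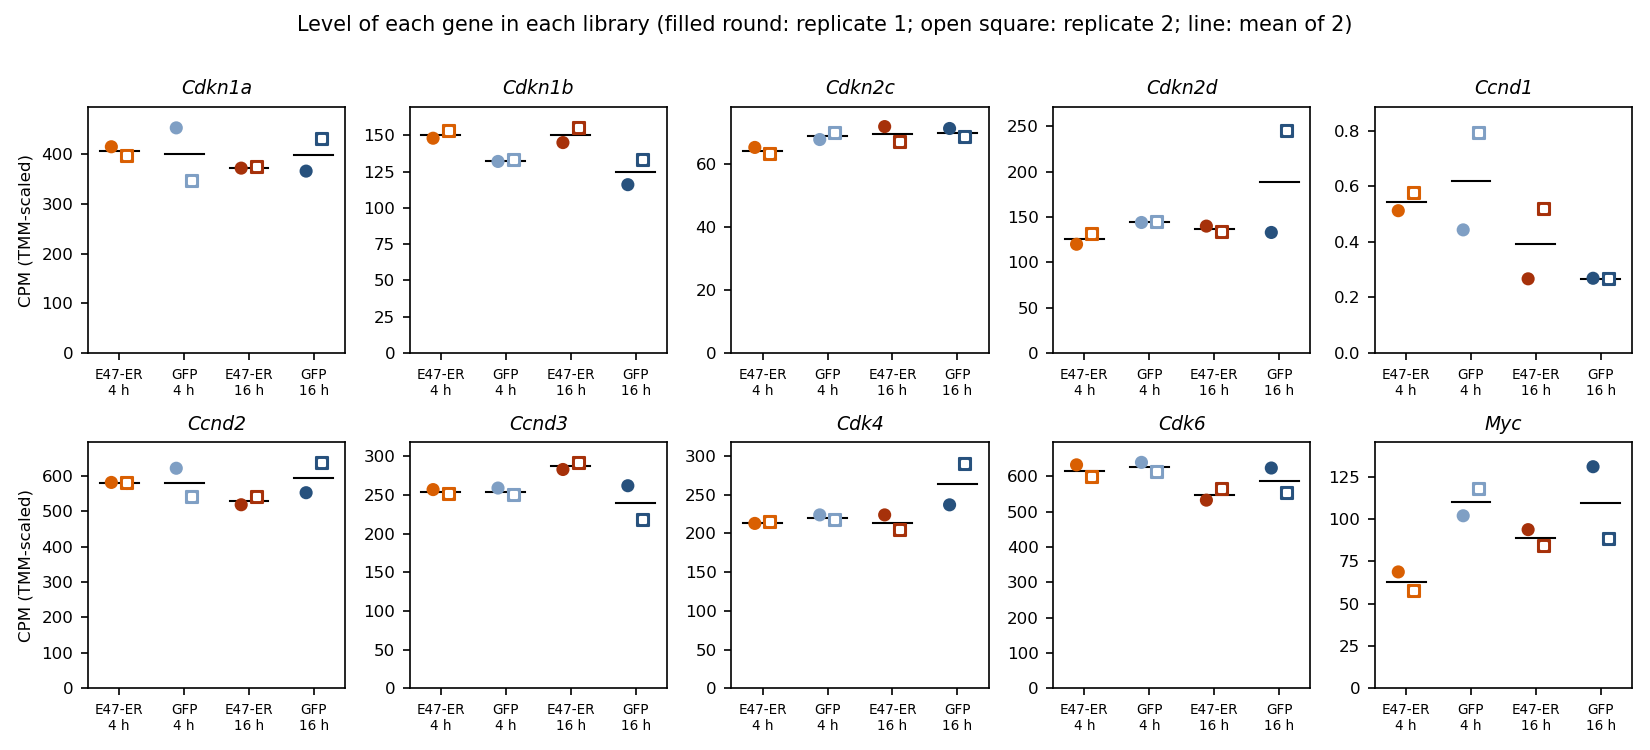
Level of each of the 10 genes in CPM in every library, by group; round points are replicate 1, squares replicate 2 and lines the mean of 2. Myc is lowest in the 2 E47-ER libraries at 4 h, and Cdkn2d and Cdk4 are highest in replicate 2 of GFP at 16 h.

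The first comparison set E47-ER cells beside GFP cells after 4 h of the drug. Myc (chr15:61985391-61990374, plus strand) showed the largest difference of the 9 genes tested, at 0.574 of its GFP level, while the folds of the cyclins, kinases and inhibitors lay between 0.87 and 1.14. Myc had 68.8 and 57.3 CPM in E47-ER libraries, against 102 and 118 CPM in GFP libraries. Both E47-ER libraries were below both GFP libraries and were the 2 lowest of all 8. The log2 fold change was -0.80 (SE 0.204, 95% interval -1.27 to -0.33), a fold of 0.574. Its adjusted p in edgeR's quasi-likelihood test with Benjamini-Hochberg adjustment over all genes was 0.359, so it was not called at 0.05. The unadjusted p was 0.00431, and 5.82% of all genes were under 0.05 unadjusted. Fewer cells with Myc RNA and less of it per cell cannot be told apart in bulk RNA. With DESeq2, which called 0.894% of all genes at 4 h, the adjusted p was 0.0582.

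Whether Myc was called at 4 h differed between fits, also with libraries of 16 h that have no part in the fold change. In the fit that omitted replicate 2 of GFP at 16 h the fold was 0.575 (SE of the log2 value 0.0993) and the adjusted p in edgeR 1.03e-05. It was also 1.03e-05 in the fit that omitted replicate 1, where 4.29% of all genes were called. With only the 4 libraries of 4 h the adjusted p was 0.000338, beside 3.38% of all genes called. In these 3 fits the spread within the 16 h GFP pair does not enter the shared estimate of error. The background differed as well, with 612 of 14146 genes (4.33%) called without replicate 2, against 39 of 13644 (0.286%) with all 8 libraries. Over 18 alternatives the log2 fold change of Myc at 4 h lay between -0.94 and -0.68, negative in each, and it was called in 5: these 3, voom (2.94% of all genes called) and no filter on low counts (0.551%).

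With all 8 libraries 9 of the 10 genes passed the filter on low counts, and edgeR called 0 of the 9 at 4 h, beside a background of 0.286%. DESeq2 also called 0 of the 9, limma's voom with quality weights called 1 (Myc), and 1 of the 9 (Myc) had an unadjusted p under 0.05 in edgeR. Libraries of the 2 groups did not overlap for 5 of the 9, against 45.4% of all genes: Cdkn1b was above, and Cdkn2c, Cdkn2d, Cdk4 and Myc were below. The 8 genes other than Myc had log2 fold changes between -0.20 and 0.19. The 95% intervals of these 8 reached a fold of 0.588 at the lowest and 1.39 at the highest, so changes of 2-fold lay outside all of them. Nothing in the labels ties the 2 replicates of a group to different mice or cultures. The p-values here therefore cover the spread between libraries only, and that spread may be technical.

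Among the CIP/KIP inhibitors, Cdkn1b (chr6:134920401-134925513, plus strand), which encodes p27, had 148 and 153 CPM in E47-ER libraries, against 132 and 133 CPM in GFP libraries at 4 h. At 16 h it had 145 and 155 CPM in E47-ER libraries, against 116 and 133 CPM in GFP libraries. At both times the E47-ER libraries were the higher ones, without overlap. Groups did not overlap, in either direction, for 45.4% of all genes at 4 h and 54.3% at 16 h. The fold was 1.14 at 4 h (log2 0.19, SE 0.125, adjusted p in edgeR 0.9999) and 1.21 at 16 h (log2 0.27, SE 0.125, adjusted p 0.222), and neither was called. With replicate 2 of GFP at 16 h omitted, which leaves 1 GFP library at that time, the 16 h fold of Cdkn1b was 1.29 (log2 0.37). With replicate 1 omitted in its place, the log2 fold change was 0.20. Cdkn1a (chr17:29090976-29100727, plus strand), which encodes p21 and is a target of p53, had 415 and 397 CPM in E47-ER libraries, against 453 and 347 CPM in GFP libraries at 4 h, and 372 and 374 CPM in E47-ER libraries, against 366 and 431 CPM in GFP libraries at 16 h. Its groups overlapped at both times, with folds of 1.01 (interval 0.785 to 1.31) at 4 h and 0.937 (interval 0.724 to 1.21) at 16 h.

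Among the INK4 inhibitors, Cdkn2c (chr4:109660876-109667189, minus strand) had 65.1 and 63.1 CPM in E47-ER libraries, against 67.6 and 69.7 CPM in GFP libraries at 4 h, and 71.7 and 66.7 CPM in E47-ER libraries, against 71.1 and 68.3 CPM in GFP libraries at 16 h. The groups were apart at 4 h and overlapped at 16 h, with folds of 0.933 (interval 0.773 to 1.13) and 0.992 (interval 0.821 to 1.20). Cdkn2d (chr9:21288410-21291407, minus strand) had 120 and 131 CPM in E47-ER libraries, against 144 CPM in both GFP libraries at 4 h. At 16 h it had 140 and 134 CPM in E47-ER libraries, against 133 and 245 CPM in GFP libraries. The value of 245 belongs to replicate 2 of GFP, in which Cdkn2d lay 0.80 above the mean of the other 3 GFP libraries in log2 CPM. Its longest transcript is 1423 bases, shorter than that of any other member. The 16 h log2 fold change was -0.46 with all libraries (adjusted p in edgeR 0.276), 0.04 without replicate 2 and -0.82 without replicate 1 (adjusted p 2.94e-07).

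The cyclin and kinase genes had folds close to 1 at 4 h, none called. Ccnd2 had 581 and 578 CPM in E47-ER libraries, against 621 and 539 CPM in GFP libraries, a fold of 0.999 (interval 0.801 to 1.25). Ccnd3 had 257 and 251 CPM in E47-ER libraries, against 259 and 250 CPM in GFP libraries, a fold of 0.998 (interval 0.809 to 1.23). The groups overlapped for both cyclins. Cdk4 had 213 and 215 CPM in E47-ER libraries, against 224 and 217 CPM in GFP libraries, a fold of 0.971 (interval 0.779 to 1.21). Cdk6, the kinase with most counts, had 633 and 599 CPM in E47-ER libraries, against 640 and 614 CPM in GFP libraries, a fold of 0.982 (interval 0.799 to 1.21). Cdk4, whose promoter carries the 4 CACGTG motifs printed above, thus had a fold of 0.971 where Myc had one of 0.574, and the difference between these effects was not tested.

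**Figure D3:**
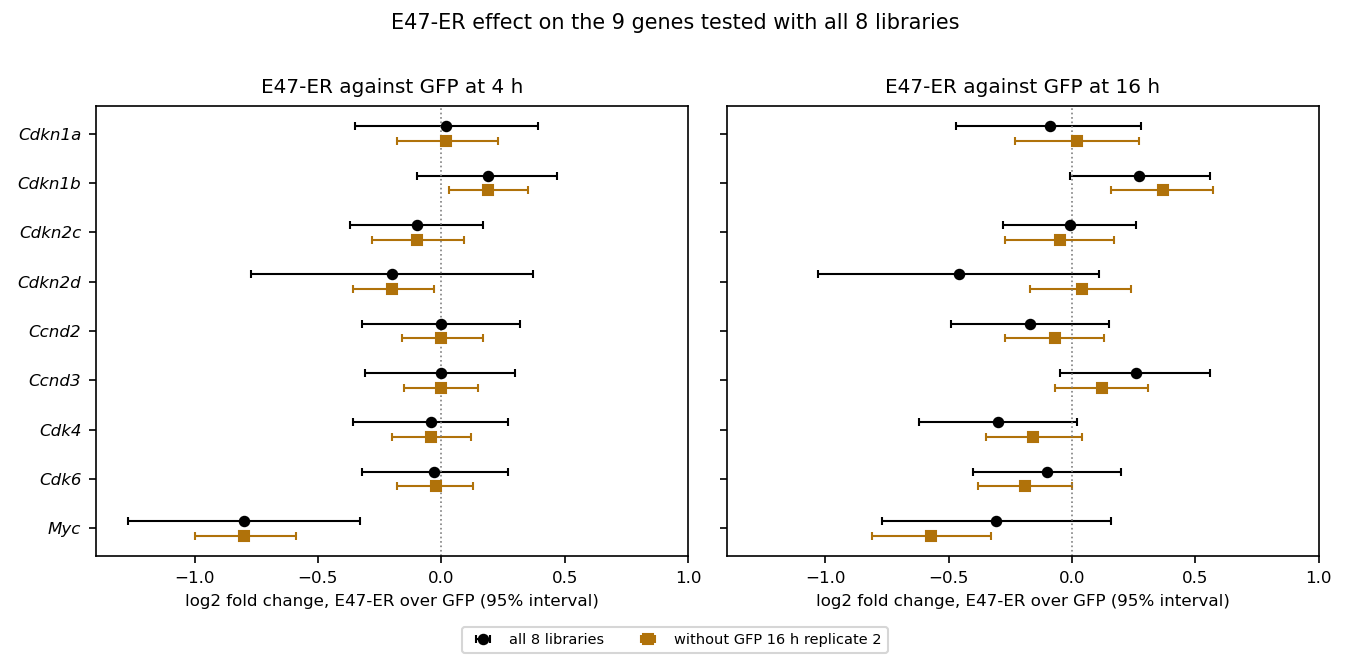
Log2 fold change of E47-ER over GFP with its 95% interval for the 9 genes tested with all 8 libraries, at 4 h (left) and 16 h (right), with all libraries (black) and with replicate 2 of GFP at 16 h omitted (brown). Myc at 4 h is at -0.80 in both fits; at 16 h Cdkn2d is at -0.46 with all libraries and at 0.04 when that replicate is omitted.

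The same contrast at 16 h gave no call among the 9 genes with all 8 libraries, where edgeR called 217 of 13644 genes (1.59%). DESeq2 (7.71% of all genes called) and voom (0.381%) also called 0 of the 9, and 0 of the 9 had an unadjusted p under 0.05 in edgeR, against 24% of all genes. Myc had 93.8 and 84.3 CPM in E47-ER libraries, against 131 and 88.4 CPM in GFP libraries. The groups overlapped, because replicate 2 of GFP lay between the E47-ER libraries. The log2 fold change was -0.31 (SE 0.203, adjusted p in edgeR 0.358). Myc fell at 16 h in the fit that omitted replicate 2 of GFP (log2 -0.57, SE 0.117, fold 0.674, adjusted p in edgeR 0.00256), beside a background of 8.92%. With replicate 1 of GFP omitted in its place, the value was 0.03 (adjusted p 0.858). The 16 h difference of Myc therefore rested on which of the 2 GFP libraries was used.

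None of the cyclin and kinase genes was called at 16 h with all 8 libraries. Ccnd3 had 283 and 291 CPM in E47-ER libraries, against 262 and 218 CPM in GFP libraries (fold 1.20, adjusted p in edgeR 0.258). Cdk4 had 224 and 204 CPM in E47-ER libraries, against 237 and 290 CPM in GFP libraries (fold 0.811, adjusted p 0.221). In both, the value farthest from the E47-ER libraries was that of replicate 2 of GFP. Ccnd2 had 518 and 539 CPM in E47-ER libraries, against 552 and 637 CPM in GFP libraries (fold 0.890, adjusted p 0.454). Cdk6 had 533 and 564 CPM in E47-ER libraries, against 624 and 553 CPM in GFP libraries (fold 0.933, adjusted p 0.633). Libraries did not overlap for 4 of the 9 genes (Cdkn1b and Ccnd3 above, Ccnd2 and Cdk4 below), against 54.3% of all genes. With replicate 2 as the only GFP library of 16 h, Ccnd2, Ccnd3, Cdk4 and Cdkn2d were called, beside 48.6% of all genes. With replicate 1 as the only one, the log2 fold changes were -0.07 for Ccnd2, 0.12 for Ccnd3 and -0.16 for Cdk4, and none of these 3 was called. Cdk4 shares 641 exon bases with Tspan31 and Ccnd3 361 with Bysl, each on the opposite strand, so reads in those stretches may be counted for the other gene.

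Between times, the difference of the E47-ER effect at 16 h and 4 h was called for 0 of the 9 genes with all 8 libraries, in edgeR, DESeq2 and voom, each of which called 0% of all genes. In edgeR 0 of the 9 had an unadjusted p under 0.05, against 4.92% of all genes. For Myc this difference was 0.49 on the log2 scale (interval -0.17 to 1.15, adjusted p 0.699), and 0.23 (adjusted p 0.782, 0.0424% of all genes called) in the fit that omitted replicate 2 of GFP at 16 h. The fit that omitted replicate 1 called it for Myc (0.83, adjusted p 0.000348), Cdkn2d, Ccnd3 and Cdk4, beside 35.5% of all genes. Within E47-ER cells, 16 h against 4 h, Myc was higher at 16 h in both libraries (93.8 and 84.3 CPM, against 68.8 and 57.3 CPM at 4 h). The log2 fold change was 0.50 (SE 0.204, adjusted p in edgeR 0.981), and edgeR called 0 of the 9 genes beside a background of 0.0147%, with 1 (Myc) at an unadjusted p under 0.05, against 5.09% of all genes. DESeq2 called 0 (0.176% of all genes) and voom 1 (Myc, 2.76% of all genes). Omitting replicate 2 of GFP at 16 h, a library outside this comparison, gave 0.48 (adjusted p 0.00961, 3.08% of all genes called). Omitting replicate 1 of that group gave an adjusted p of 0.00861 (3.05% called), and using only the 4 E47-ER libraries gave 0.00128 (7.32% called). Libraries did not overlap in time for 7 of the 9, against 50.4% of all genes: Cdkn2c, Cdkn2d, Ccnd3 and Myc were higher at 16 h, and Cdkn1a, Ccnd2 and Cdk6 lower. This time comparison shares its E47-ER libraries with the 2 comparisons against GFP.

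Around MYC, the sister gene Mycn and the antagonist Mxi1 gave lower values beside Myc. Mycn, which can stand in for Myc, had 20.3 and 23.7 CPM in E47-ER libraries, against 33.9 and 48.5 CPM in GFP libraries at 4 h, and 21.0 and 25.0 CPM in E47-ER libraries, against 38.4 and 44.9 CPM in GFP libraries at 16 h. All 4 E47-ER libraries were below all 4 GFP libraries. The log2 fold changes were -0.91 (adjusted p in edgeR 0.237) at 4 h and -0.85 (adjusted p 0.0953) at 16 h, not called. DESeq2 called both (adjusted p 0.025 and 0.0116), beside 0.894% of all genes at 4 h and 7.71% at 16 h. In voom both Mycn and Mxi1 were called at 4 h, beside 2.94% of all genes, and 0 of the list at 16 h, beside 0.381%. Mxi1, which competes with MYC for MAX, had 26.4 and 23.4 CPM in E47-ER libraries, against 37.9 and 39.7 CPM in GFP libraries at 4 h, and 26.4 and 28.4 CPM in E47-ER libraries, against 36.9 and 30.2 CPM in GFP libraries at 16 h. For Mxi1 the groups were apart at both times, with log2 fold changes of -0.64 and -0.30 (adjusted p 0.278 and 0.253). Of 11 MYC partners and antagonists, edgeR called 0 at either time with all 8 libraries, beside 0.286% and 1.59% of all genes. DESeq2 called 1 at each time, beside the shares given above. In edgeR 2 of the 11 had an unadjusted p under 0.05 at each time, against 5.82% of all genes at 4 h and 24% at 16 h. The fit that omitted replicate 1 of GFP at 16 h called 2 at 4 h, beside 4.29% of all genes, and 5 at 16 h, beside 48.6%. In the fit that omitted replicate 2 of GFP at 16 h, the 4 h log2 fold changes were -0.91 for Mycn and -0.63 for Mxi1. At 16 h the 1 GFP library kept had 38.4 CPM of Mycn and 36.9 CPM of Mxi1, each above both E47-ER libraries. In the same fit Mxd1, another MAX-binding antagonist, had a log2 fold change of 0.47 at 16 h, against 0.34 with all 8 libraries. It had 371 and 433 CPM in E47-ER libraries, against 289 CPM in the GFP library kept.

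**Figure D4:**
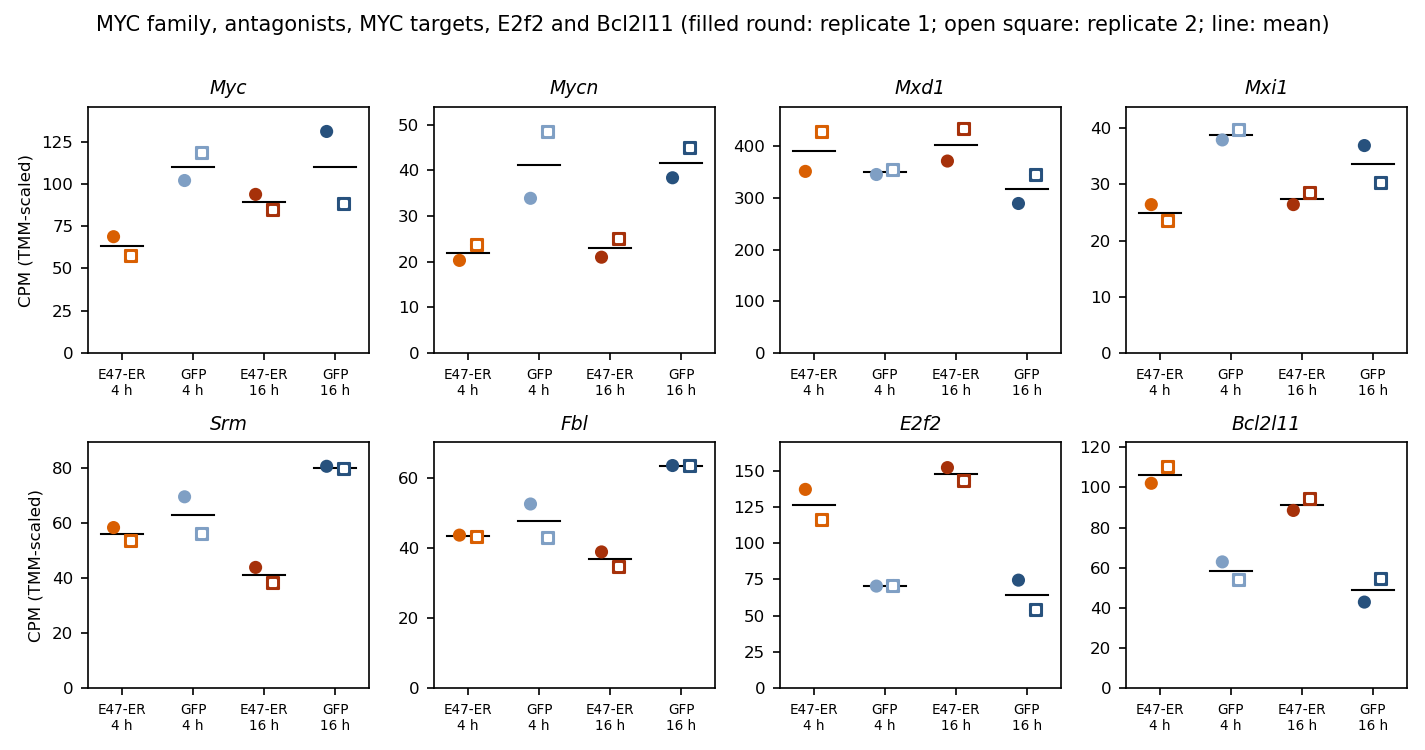
CPM by library and group for Myc, its sister Mycn, the antagonists Mxd1 and Mxi1, the MYC targets Srm and Fbl, E2f2, and Bcl2l11; round points are replicate 1, squares replicate 2, lines means of 2. Mycn, Srm and Fbl are lower and E2f2 and Bcl2l11 higher in E47-ER cells at 16 h, without overlap.

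Widely used MYC target genes had mostly negative log2 fold changes at both times. Of 15 such genes, 14 had negative log2 fold changes at 4 h (median -0.17) and 13 at 16 h (median -0.45), beside medians of -0.004 and -0.006 over all genes. The difference between times was called for 0 of the 15 in edgeR, with 4 at an unadjusted p under 0.05, against 4.92% of all genes. Srm, which makes spermidine, had 44.0 and 38.5 CPM in E47-ER libraries at 16 h, against 80.8 and 79.9 CPM in GFP libraries. Fbl, the methyltransferase of ribosomal RNA, had 39.0 and 34.8 CPM in E47-ER libraries, against 63.7 and 63.5 CPM in GFP libraries. Neither pair overlapped, and both genes fell at 16 h (log2 -0.96 and -0.79, SE 0.151 and 0.142, adjusted p in edgeR 0.024 and 0.0387). They were the 2 of 15 called, beside a background of 0.337% of genes called lower. DESeq2 called 7 of the 15 and voom 0, beside 7.71% and 0.381% of all genes. In edgeR 11 of the 15 had an unadjusted p under 0.05 at 16 h, against 24% of all genes. When replicate 2 of GFP at 16 h was omitted, 12 of the 15 fell (median -0.48), beside 4.53% of genes called lower. Among the 12 was Npm1, a nucleolar protein (log2 -0.59, adjusted p 0.000513), and omitting replicate 1 of GFP at 16 h gave 12 calls in either direction, beside the 48.6% given above.

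The 2 calls among the MYC targets did not hold in every fit. Neither Srm nor Fbl was called when any 1 of the 6 libraries outside the 16 h GFP pair was left out. These 6 are replicates 1 and 2 of E47-ER at 4 h, GFP at 4 h and E47-ER at 16 h. Fewer of all genes were called in those fits too. Both genes stayed called when either GFP library at 16 h was left out. With 1 library left out at a time, the 16 h log2 fold change was -1.051 to -0.861 for Srm and -0.859 to -0.698 for Fbl. With only the 4 libraries of 16 h 0 of the 15 were called, beside 0.0458% of all genes. With all 8 libraries DESeq2 called 0 of the 15 at 4 h. There edgeR also called 0, with 2 at an unadjusted p under 0.05, against 5.82% of all genes. At 4 h Ldha, lactate dehydrogenase A, had a log2 fold change of -0.36 and Tfrc, the transferrin receptor, one of 0.32. Both values were the same with replicate 2 of GFP at 16 h omitted. Nme1 shares 418 exon bases on the same strand with Gm20390, and counts between those may be split.

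**Figure D5:**
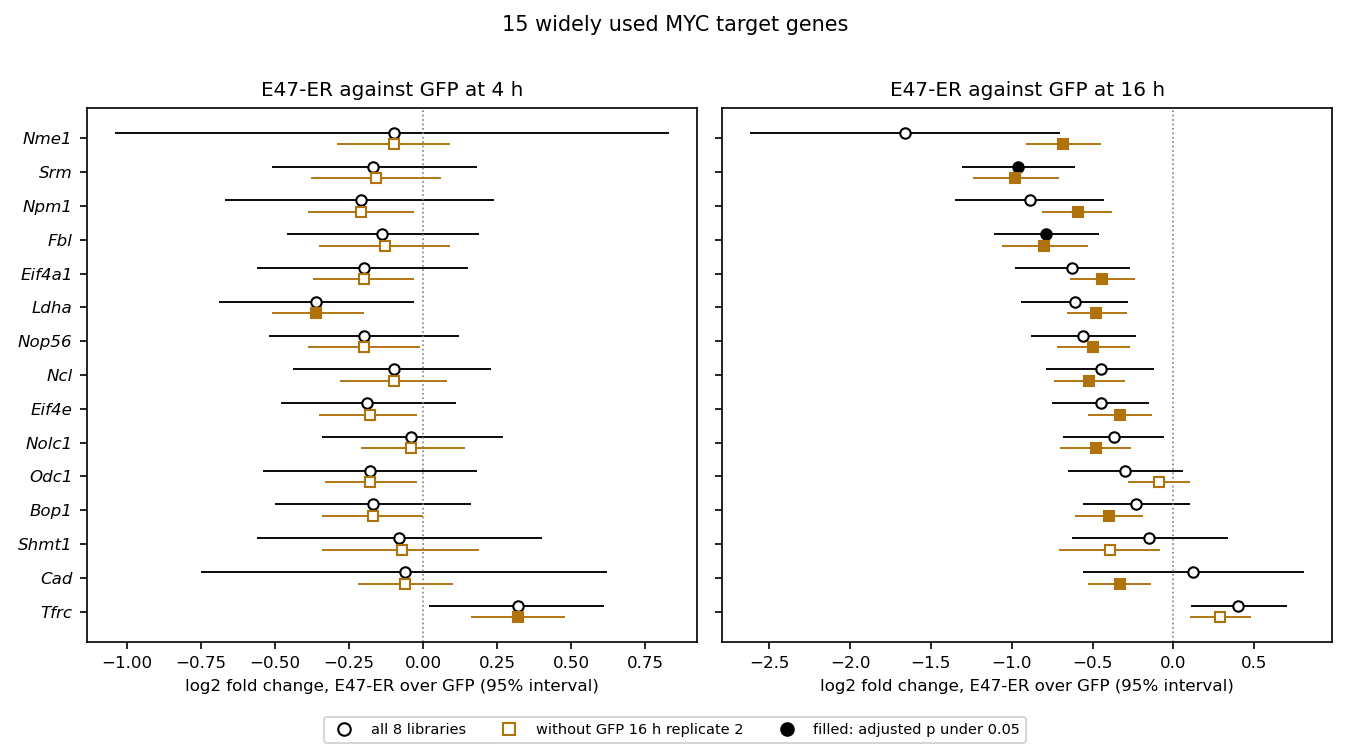
Log2 fold change of E47-ER over GFP with its 95% interval for 15 widely used MYC target genes at 4 h (left) and 16 h (right), with all 8 libraries (black) and with replicate 2 of GFP at 16 h omitted (brown); filled points were called. At 16 h 2 of 15 were called lower with all libraries and 12 of 15 without that replicate.

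Downstream of CDK4 and CDK6, E2f2 was the 1 gene of the RB and E2F list that was called with all 8 libraries. E2f2, an E2F factor, had 152 and 143 CPM in E47-ER libraries at 16 h, against 74.5 and 53.8 CPM in GFP libraries, and 137 and 116 CPM in E47-ER libraries at 4 h, against 70.4 and 70.8 CPM in GFP libraries. The 4 E47-ER libraries were all above the 4 GFP libraries. It rose 2.29-fold at 16 h (log2 1.20, SE 0.176, adjusted p in edgeR 0.0197). At 4 h the fold was 1.80 (adjusted p 0.178), not called in edgeR. DESeq2 called it (adjusted p 0.00555), beside 0.894% of all genes. Leaving out any 1 of the 6 libraries outside the 16 h GFP pair ended the 16 h call, in fits that called fewer of all genes too. Leaving out either GFP library at 16 h kept the call. With 1 library left out at a time, the 16 h log2 fold change of E2f2 lay between 0.978 and 1.476. With only the 4 libraries of 16 h the adjusted p in edgeR was 0.296 (0.0458% of all genes called), and with voom 0.0402 (0.381%). Of the 13 RB and E2F genes, 1 was called higher at 16 h (background 1.25% called higher) and 10 had positive values (median 0.33). Omitting replicate 1 of GFP at 16 h gave 9 calls at that time, beside 48.6% of all genes, and omitting replicate 2 gave 2, beside 8.92%. Rb1, the retinoblastoma gene itself, had a log2 fold change of 0.45 at 16 h (adjusted p 0.134), and rose by 0.31 (adjusted p 0.0459) when replicate 2 of GFP was omitted.

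For neighbouring steps of the G1 machinery the edgeR test with all 8 libraries gave no call. Over all genes, 5.82% at 4 h and 24% at 16 h had an unadjusted p under 0.05 in edgeR. Of 4 other CDK inhibitors, edgeR and DESeq2 called 0 at either time, and the numbers with an unadjusted p under 0.05 in edgeR were 0 at 4 h and 1 at 16 h. Cdkn2b, which encodes p15, had a log2 fold change of 0.06 at 4 h and -0.44 at 16 h (adjusted p 0.208). Cdkn3, a phosphatase of CDKs, had 0.08 and 0.13. Of 8 genes of cyclin E, CDK2 and their activators, edgeR and DESeq2 called 0 at either time, with 0 and 3 at an unadjusted p under 0.05. Mnat1, a part of the CDK-activating kinase, had a log2 fold change of -0.37 at 16 h (adjusted p 0.178). Ccna2, cyclin A2, had 135 and 112 CPM in E47-ER libraries at 16 h, against 102 and 74.8 CPM in GFP libraries (log2 0.47, adjusted p 0.17). Of 11 genes for the degradation of CDK inhibitors and G1 cyclins, edgeR called 0 at either time, with 0 and 3 at an unadjusted p under 0.05. DESeq2 called Cks1b and Rbx1 lower at 16 h, beside 7.71% of all genes called in either direction. There replicate 2 of GFP held 158 CPM of Cks1b and 242 CPM of Rbx1, against 90.1 and 83.2 CPM in replicate 1. In the fit that omitted that replicate edgeR called neither (log2 -0.32 and -0.21), and with all 8 libraries but no filter on low counts it called both. The fit that omitted replicate 1 gave 2 calls among the 4 inhibitors, 3 among the 8 cyclin E and CDK2 genes and 6 among the 11 degradation genes at 16 h, beside 48.6% of all genes.

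Genes of S and G2/M phase gave no call between E47-ER and GFP cells with all 8 libraries. Of 21 such genes, edgeR and DESeq2 called 0 at 4 h (median log2 0.04) and 0 at 16 h (median 0.26, and 0.01 with replicate 2 of GFP omitted). In edgeR 0 of them at 4 h and 2 at 16 h had an unadjusted p under 0.05, against 5.82% and 24% of all genes. Ccnb2, cyclin B2, had a log2 fold change of 0.05 at 4 h and 0.33 at 16 h (adjusted p 0.19). Cdk1, the kinase of mitosis, had -0.19 and -0.50 (adjusted p 0.171 at 16 h). With replicate 2 as the only GFP library of 16 h, 17 of the 21 were called at that time, beside 48.6% of all genes, and with replicate 1 as the only one 0 were, beside 8.92%. Within E47-ER cells all 21 had positive log2 fold changes of 16 h over 4 h (median 0.18), against 50.5% of all genes, and 20 of 21 when replicate 2 of GFP at 16 h was omitted. The edgeR test called 0 with all 8 libraries, with 3 at an unadjusted p under 0.05, against 5.09% of all genes. With that library omitted it called 3 higher at 16 h, Bub1, Ccnb2 and Rrm2, beside 1.74% of all genes called higher.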

How the data were processed

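The 8 bulk RNA libraries were put into 4 groups of 2 by their titles. Raw counts per Ensembl gene, not normalized, were deposited by the authors, and all 8 columns were used. Library totals were 8813782 to 18677675. Per the submitters' processing notes the build was mm10 and DESeq2 was used. The aligner, the counter and its strand setting were not given in the sources used here. Symbols, positions and lengths came from GENCODE M21 (GRCm38), which matched 50462 of 50686 IDs.

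The tests ran in edgeR 4.0.16 under R 4.3.3: filterByExpr with a minimum count of 10 left 13644 genes, libraries were scaled by TMM, and a robust quasi-likelihood model took the 4 group means from all 8 libraries. Benjamini-Hochberg adjustment of the two-sided p-values ran over all genes tested, with calls at adjusted values under 0.05. Each standard error was taken as |log2 fold change| over the root of F, and intervals are at 95%. An exact permutation test of 2 against 2 libraries cannot go below p = 0.333, so none was used. The procedure was tested on simulated data. The simulation gave each gene the same mean level in every library, scaled to library size, apart from the genes changed in E47-ER libraries. It thus held no excess of short transcripts in replicate 2 of GFP at 16 h. The changed genes were the same at both times and were not drawn from genes with low counts. Its rates may therefore not hold for these data or for such genes. At both times the procedure recovered 56% of the genes changed 2-fold and 98% of those changed 4-fold. False calls made up 6.667% of calls at 4 h and 7.784% at 16 h. Alternatives were DESeq2 1.42.0, limma 3.58.1 voom with quality weights, RLE scaling, library totals only, a minimum count of 30, no filter, no robust dispersion, only the libraries of a comparison, a replicate block, and leaving out each library in turn, where a group left with 1 library borrows the spread of the others.

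The 10 genes and the lists around them (9 other lists of 110 symbols, all found, and 5 marker lists) were chosen with earlier results of these data known. All 10 genes are named. From each other list up to 4 called genes were named by smallest adjusted p, or, where none was called, the 2 with the smallest p. Repeating this rule without replicate 2 of GFP at 16 h was chosen after seeing the data, and Ldha and Tfrc were named after their values were seen. RefSeq proteins were not used here. Plots were made in Python 3.11.15 and matplotlib 3.10.9.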

Additional observations from a re-analysis of the deposited data

How the results depend on the processing

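With 2 libraries a group and 8813782 counts in the smallest library, moderate changes of these genes may be missed, and Ccnd1 was too sparse for a test. At 4 h the edgeR test as reported and DESeq2 called 0 members; 1 (Myc) was called without a filter on low counts (adjusted p 0.00308), with only the 4 libraries of 4 h (0.000338) and with voom (0.00126), and 0 to 1 when 1 library was left out. At 16 h and for the difference between times, members were called only in fits that left out 1 of the 16 h GFP libraries. Each of those fits leaves 1 GFP library at 16 h, so those calls are not counted here. For 16 h against 4 h in E47-ER cells, 1 (Myc) was called with only those libraries, beside 7.32% of all genes. With voom 1 (Myc) was called too, beside 2.76%. The differences between replicates 1 and 2 correlated weakly between groups (6 correlations, -0.0901 to 0.202). The highest was between E47-ER at 4 h and GFP at 16 h, the pair that holds the library standing apart. A replicate block in edgeR called 0 members in all 4 comparisons, within each time and across groups. Myc at 4 h then had adjusted p 0.557 and 0.325. With the block within each time, 16 h against 4 h compares fitted levels of replicate 1, not group means, so that setting does not repeat this comparison. The block within each time also ended the 16 h calls of E2f2 (adjusted p 0.0586), Srm (0.0812), Fbl (0.14) and Bcl2l11 (0.115), which the block across groups kept (0.0198, 0.0251, 0.0454 and 0.0498). At 16 h the block within each time called 0.396% of all genes and the block across groups 1.43%. Using the longest transcript as length moved the Ccnd2 share to 57.3%, the Ccnd3 share to 42.7% and the CDK4 to CDK6 ratio to 2.17. The difference between times could not be fitted with fewer than its 4 groups, so it has no value from only the libraries of a comparison.

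Of the log2 fold changes recomputed, 51 turned their sign, 1517 kept their side of the threshold, 105 became called and 46 lost the call. At 4 h Ccnd2, at -0.002, gave 0.001 with DESeq2 and with RLE scaling, 0.002 with the block within each time and 0.003 with voom. At 16 h library totals alone gave 0.044 for Cdkn1a, 0.112 for Cdkn2c, 0.019 for Cdk6, 0.037 for Il7r and 0.133 for Ccng2, and no filter gave 0.052 for Cdkn2c and 0.055 for Ccng2, which had 0.015 with the block within each time and 0.029 with voom. Library totals alone also gave differences between times of 0.023 for Cdkn1a and 0.044 for Cdk6, and time values in E47-ER cells of 0.006 for Cdkn1b and 0.010 for Cdk4. The block within each time gave a time value of -0.029 for Cdkn2d, which compares fitted levels of replicate 1 and not group means. The cause of the other changes of sign was not tested.

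Leaving out 1 library at a time also crossed 0 for some genes. At 4 h the ranges were -0.161 to 0.225 for Cdkn1a, -0.102 to 0.103 for Ccnd2, -0.030 to 0.021 for Ccnd3, -0.067 to 0.011 for Cdk6, -0.014 to 0.177 for Cdkn3, -0.033 to 0.142 for Cdkn2b, -0.134 to 0.061 for Rbx1, -0.275 to 0.015 for Fbl, -0.003 to 0.107 for Ccnb2, -0.255 to 0.032 for Nme1 and -0.306 to 0.007 for Bub1. At 16 h they were -0.185 to 0.020 for Cdkn1a, -0.053 to 0.047 for Cdkn2c, -0.815 to 0.036 for Cdkn2d, -0.192 to 0.012 for Cdk6, -0.569 to 0.031 for Myc, -0.059 to 0.333 for Cdkn3 and -0.325 to 0.368 for Ccng2. For the difference between times they were -0.312 to 0.080 for Cdkn1a, -0.615 to 0.231 for Cdkn2d and -0.169 to 0.040 for Cdk6, and for time in E47-ER cells -0.056 to 0.047 for Cdkn1b and -0.068 to 0.065 for Cdk4.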

Other observations

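Of 10 FOXO factors and FOXO target genes, edgeR with all 8 libraries called 0 at 4 h and 1 at 16 h. In edgeR 3 at 4 h and 4 at 16 h had an unadjusted p under 0.05, against 5.82% and 24% of all genes. DESeq2 called Bcl2l11 at 4 h, beside 0.894% of all genes, and Bcl2l11 and Klf2 at 16 h, beside 7.71%. Klf2 at 16 h was also called with no filter on low counts, beside 6.07% of all genes. Bcl2l11, which encodes the pro-death protein BIM, had 88.5 and 94.3 CPM in E47-ER libraries at 16 h, against 42.9 and 54.5 CPM in GFP libraries, and 102 and 110 CPM in E47-ER libraries at 4 h, against 62.9 and 53.8 CPM in GFP libraries. It rose 1.88-fold at 16 h (log2 0.91, SE 0.158, adjusted p in edgeR 0.0337), beside 1.25% of all genes called higher. At 4 h the fold was 1.82 (adjusted p 0.105), and DESeq2 called it (adjusted p 0.001). Leaving out any 1 of the 6 libraries outside the 16 h GFP pair ended the 16 h call, in fits that called fewer of all genes too. With 1 library left out at a time, the 16 h log2 fold change of Bcl2l11 lay between 0.769 and 1.083. With only the 4 libraries of 16 h its adjusted p in edgeR was 0.336 (0.0458% of all genes called), and with voom 0.0906 (0.381%). Without replicate 2 of GFP at 16 h, the 4 h log2 fold changes were 0.87 for Bcl2l11, 1.02 for Klf2 and -0.29 for Il7r. With all 8 libraries they were 0.86, 1.02 and -0.30. At 16 h the median of the 10 genes was 0.28 in that fit, against 0.24 with all 8 libraries. Ccng2 at 16 h was -0.02 with all 8 libraries, 0.37 without replicate 2 and, with the opposite sign, -0.33 without replicate 1. Without replicate 1 the calls were 3 at 4 h, beside 4.29% of all genes, and 6 at 16 h, beside 48.6%.

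Of 17 p53 target genes, the family that holds Cdkn1a, edgeR and DESeq2 called 0 at either time with all 8 libraries. In edgeR 2 at 4 h and 3 at 16 h had an unadjusted p under 0.05, against 5.82% and 24% of all genes. Btg2, which slows growth, had 78.5 and 82.7 CPM in E47-ER libraries at 4 h, against 58.7 and 42.7 CPM in GFP libraries (log2 0.67, adjusted p in edgeR 0.531). Without replicate 2 of GFP at 16 h its log2 fold change was 0.67 at 4 h and 0.72 at 16 h, against 0.67 and 0.44 with all 8 libraries. Zmat3 at 4 h was at 0.37 in that fit and with all 8 libraries. With 1 library left out at a time, Trp53inp1 at 16 h lay between 0.396 and 0.402. Voom called Btg2 at 4 h, beside 2.94% of all genes.

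Across the 8 libraries and 8704 genes, the log2 CPM of Myc went most closely with Rars2 (r = 0.961), Ints10 (0.959) and Prkar2b (0.952), and ran most against Ric8a (-0.971), Aebp2 (-0.964) and Tnfrsf1b (-0.952). Over 7 libraries, without replicate 2 of GFP at 16 h, the closest were Zdhhc13, Sap30 and Pou2f2, so only Ric8a stayed among the 6 named. For Cdkn1a the closest over 8 libraries were Mdfic, Nptn and Fam219b and the most opposed Snap47, Tle3 and Egr1. These are descriptions over libraries that share groups and times.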
